A study of Chlamydomonas reinhardtii with 3 samples.

Results

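Chromosome 15 is the smallest gene set among the 17 chromosomes of the green alga Chlamydomonas reinhardtii in the deposited gene table. Its genes were taken as every entry whose identifier starts with Cre15.g and that has a methylation level in both genotypes, and no measured value entered that choice. This gave 215 of the 17326 genes with levels. The table lists 220 entries for the chromosome, and the other 5 have no level and only 3 or 4 sites in at least 1 genotype. The cells came from cmd1 KO cultures (2 libraries), which lack the TET homolog CMD1, and from a wild type culture (1 library). All were strain CC125, grown at 25 °C in acetate medium under a light intensity of 20 μmol photons (each second, per square metre), then moved to Sueoka's high salt medium under 300 μE. The labels used here do not say how the knockout was made or whether it is a single clone. DNA was bisulfite converted, so that unmethylated cytosine was read as thymine, and the level of a gene is the authors' mean over the sites listed for it. The study asked whether losing CMD1 moves the cytosine methylation level.

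Cytosine methylation is set by DNA methyltransferases and in many organisms is concentrated in transposons and other repeats. TET enzymes oxidise 5-methylcytosine in animals. CMD1 is an algal relative that uses vitamin C as a co-substrate and attaches a glyceryl group to 5-methylcytosine. The nuclear genes of Chlamydomonas are known to carry little methylation compared with those of land plants.

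The 2 cmd1 KO libraries share 1 column of the table, so each genotype has 1 value per gene, there is no spread between replicates, and every difference describes these libraries. The listed sites are numbers of sites, not reads, so the read depth behind a level is unknown. The chromosome 15 levels rested on 7715 listed sites in cmd1 KO (median 27 per gene) and 16564 in wild type (median 75 per gene). Levels come in steps of 0.001 as a fraction, and 171 of the 215 means in wild type were smaller than the least mean that a list of all-different levels of that length could have, against 0 of 215 means in cmd1 KO. Over all genes, 15822 of the 17326 means in wild type and 0 in cmd1 KO were that small. Repeated levels were therefore present in the wild type lists of these 171 genes. The least mean grows with the length of the list, and the cmd1 KO lists were mostly shorter and their levels mostly higher. The 0 in cmd1 KO therefore does not show that repeated levels were absent there. Averaging over unlike lists was not tested here as a source of the differences. Beside the main results, cmd1 KO levels are also given with the summed levels of a gene spread over more sites. The wild type divisor uses the wild type site number where that is larger than the cmd1 KO number. The larger divisor uses 1.52 times the wild type site number, the factor being the median ratio of cmd1 KO to wild type numbers in the 150 genes of the genome at 40% or more in wild type. Both count added sites as unmethylated, and true site numbers are unknown, so neither is a lower limit.

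Genes of chromosome 15 had a median level of 6.30% in cmd1 KO (quartiles 5.24% and 8.53%) and 1.25% in wild type (quartiles 0.96% and 1.88%). In cmd1 KO, 209 genes (97.2%) had a higher level than in wild type and 6 a lower one, against 99.1% of all genes higher. All 195 genes under 10% in wild type were higher in cmd1 KO, so the 6 lower genes were among the 20 genes at 10% or more. The median difference was 4.84 percentage points, against 4.73 points in the 16869 genes of the other chromosomes. With the wild type divisor, the median difference was 0.83 points on chromosome 15 and 0.74 points over all genes, and 189 genes (87.9%) were higher, against 92.1% of all genes. With the larger divisor it was 0.092 points on chromosome 15 and 0.13 points over all genes, and 124 genes (57.7%) were higher, against 62.9% of all genes. The median level of chromosome 15 lay above that of each other chromosome in both genotypes, as the others ranged from 5.81% to 6.09% in cmd1 KO and from 1.02% to 1.13% in wild type. The upper part of the distribution stood further apart. The 95th percentile of the level was 24.3% in cmd1 KO and 19.7% in wild type on chromosome 15. On the other chromosomes it was 13.6% in cmd1 KO and 3.61% in wild type. The unplaced scaffolds stood higher still, with a 95th percentile of 44.1% in cmd1 KO and 38.1% in wild type. Their median was 7.39% in cmd1 KO and 1.67% in wild type.

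**Figure D1:**
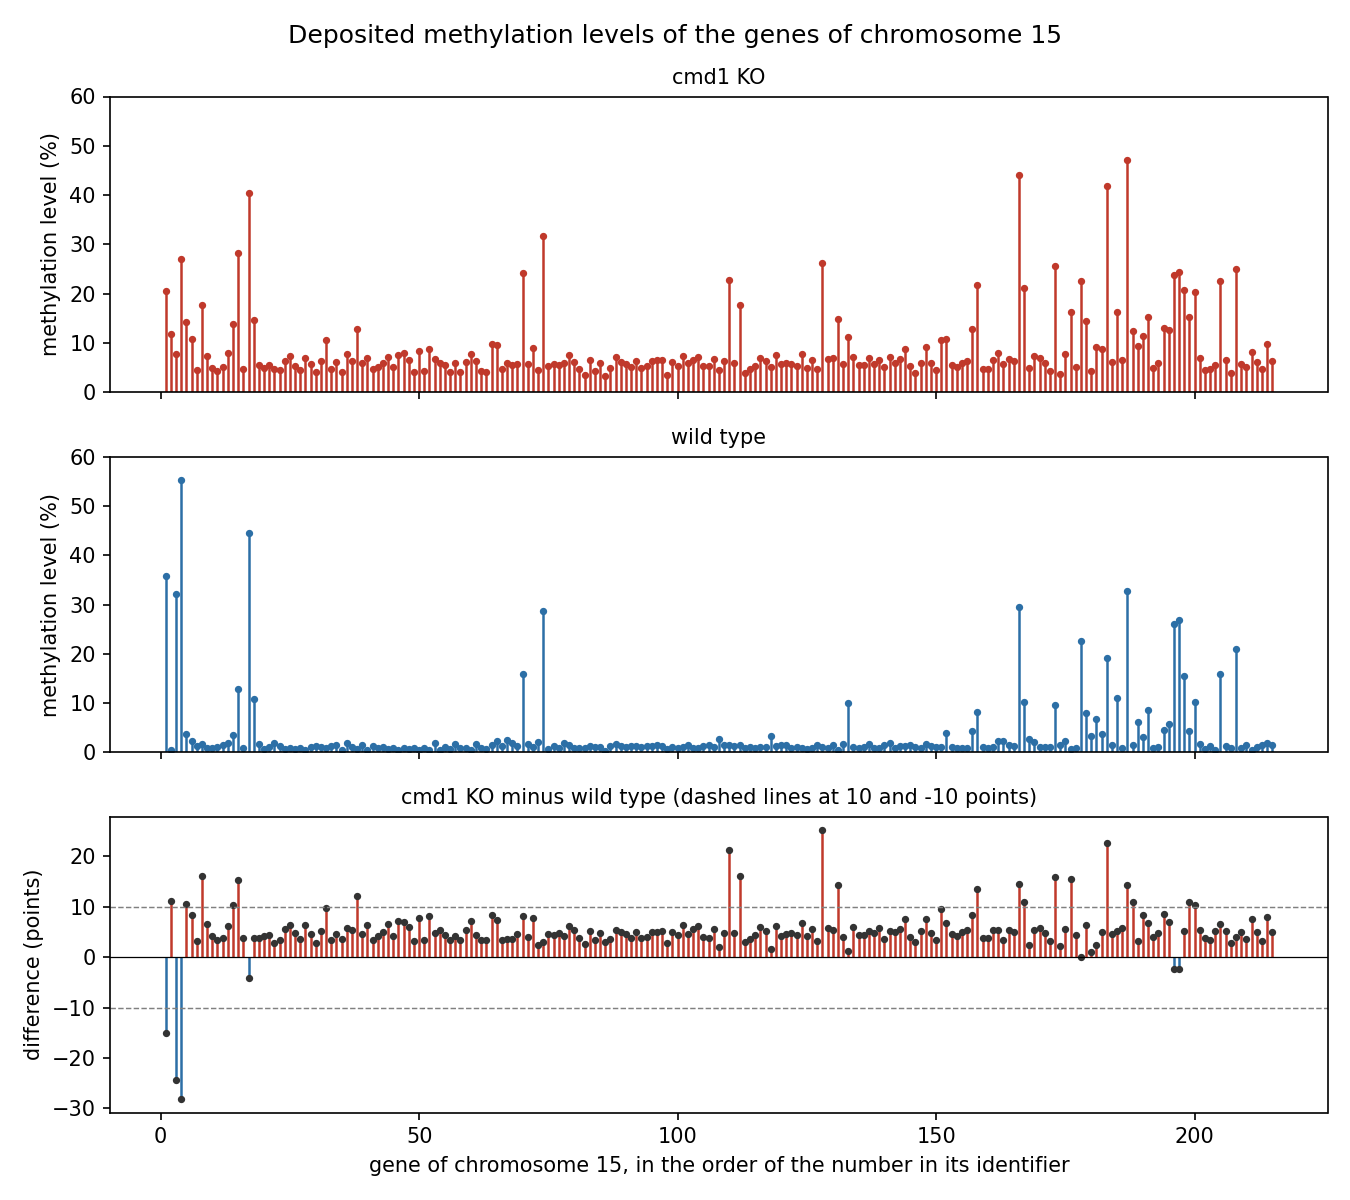
Methylation level (%) of each of the 215 genes in cmd1 KO (top) and wild type (middle), and the difference in points (bottom), in the order of the number in the identifier. Genes that reached 10% in wild type lie mostly in the first 20 and the last 55 genes of the order (18 of 20), and the 3 genes lower by 10 points or more are among the first 4.

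A difference of at least 10 points was counted as large. On chromosome 15, 20 genes were higher in cmd1 KO by that size, which is 9.30% (exact 95% interval 5.78% to 14.0%), against a background of 3.5% of all genes. Only 3 genes were lower by that size, against a background of 0.0923%. On the other 16 chromosomes the share of higher genes ranged from 1.69% on chromosome 10 to 5.52% on chromosome 5. The share of genes at 10% or more in wild type was likewise 9.30% on chromosome 15, and it ranged from 1.90% on chromosome 7 to 7.29% on chromosome 4. Both shares were the highest of the 17 chromosomes, although the interval overlapped those of 4 of the other 16 chromosomes for the higher genes, and those of 5 for the wild type level. The unplaced scaffolds, whose 242 genes stood at 10% or more in wild type in 24.4% of cases, had 7.85% of genes higher by 10 points. The intervals take genes as independent and cover counting error only, and no test over genes was run, because genes are not replicates. With the wild type divisor, 9 chromosome 15 genes (4.19%) and 186 of all genes (1.07%) were higher by 10 points, and with the larger divisor 4 (1.86%) and 76 of all genes (0.44%) were.

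**Figure D2:**
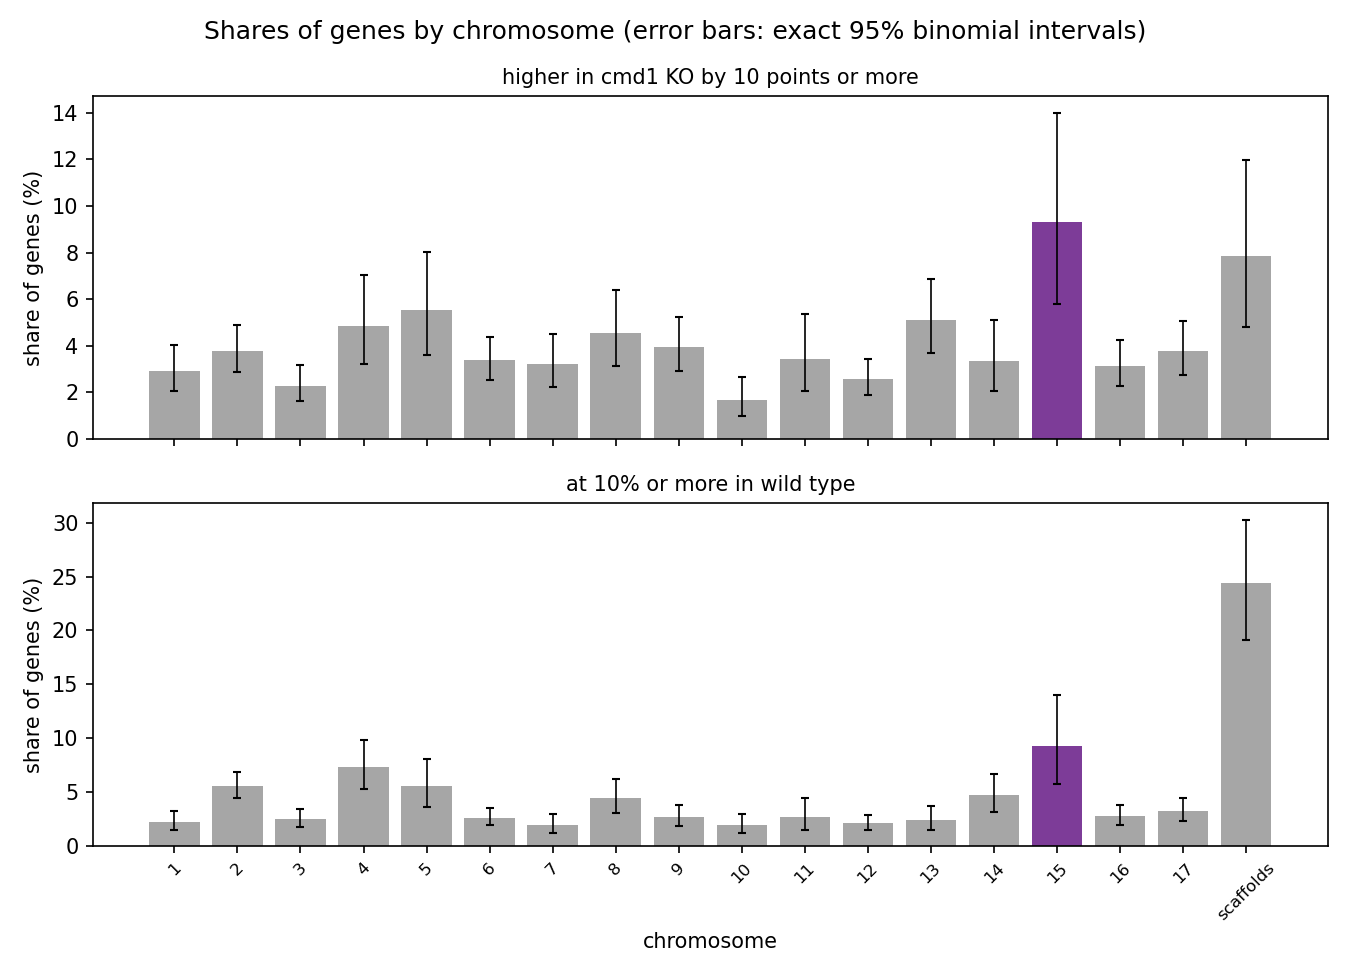
Share of genes (%) higher in cmd1 KO by 10 points or more (top) and at 10% or more in wild type (bottom) on each chromosome and on the unplaced scaffolds, with exact 95% binomial intervals. Chromosome 15, in purple, has 9.30% in both panels, above each of the other 16 chromosomes.

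The test behind the p-values in the authors' deposited table is not stated, and nearly all genes pass it. After Benjamini-Hochberg adjustment over all genes, 204 chromosome 15 genes passed an adjusted p of 0.05 with a higher level in cmd1 KO, or 94.9%, against a background of 97.6% in the authors' deposited table. The 3 genes lower by 10 points passed too, and they were the only lower genes to do so (1.40%, against a background of 0.242% in the authors' deposited table). All 20 genes higher by 10 points passed in the authors' deposited table. The 8 that missed the threshold included both Cre15.g643391 and Cre15.g643392, described below, and Cre15.g637900.

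The first 4 genes of the chromosome by number held all of its large differences towards wild type. Cre15.g634582 stood at 27.1% over 76 sites in cmd1 KO and at 55.2% over 16 sites in wild type. Its difference of -28.2 points was the lowest of all 17326 genes. Cre15.g634566 stood at 7.71% over 106 sites in cmd1 KO and at 32.1% over 5 sites in wild type, a difference of -24.4 points that was the second lowest of all genes. Cre15.g634500, the first gene by number, stood at 20.6% over 101 sites in cmd1 KO and at 35.7% over 30 sites in wild type, a difference of -15.1 points. Between them lies Cre15.g634550, which differed in the other direction, with 11.8% over 116 sites in cmd1 KO and 0.60% over 7 sites in wild type. It was named after its value had been seen. These 4 neighbours had 399 listed sites in cmd1 KO and 58 in wild type, while over the whole chromosome the cmd1 KO lists were the shorter ones.

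Their site numbers stood apart from those of nearly all genes. The cmd1 KO site number divided by that of wild type was 21.2 in Cre15.g634566 and 16.6 in Cre15.g634550, the highest and the next highest of all genes. It was 4.75 in Cre15.g634582 and 3.37 in Cre15.g634500, which ranked 6 and 10. The median ratio was 0.35 over the genes of chromosome 15 and 0.31 over all genes. Only 11 of the 17326 genes had a ratio of 3 or more, and 4 of them were these neighbours. Both divisors leave all 4 differences as they are, since the cmd1 KO list is already longer than either. The short wild type lists of these 4 genes were not tested as a source of the differences. With at least 20 sites in both columns, Cre15.g634500 alone of the 3 lower genes is left. Over the first 10 genes of each other chromosome, 0 genes were lower by 10 points. Such genes were rare throughout the other chromosomes, 12 of 16869 (0.071%), so this 0 says little.

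**Figure D3:**
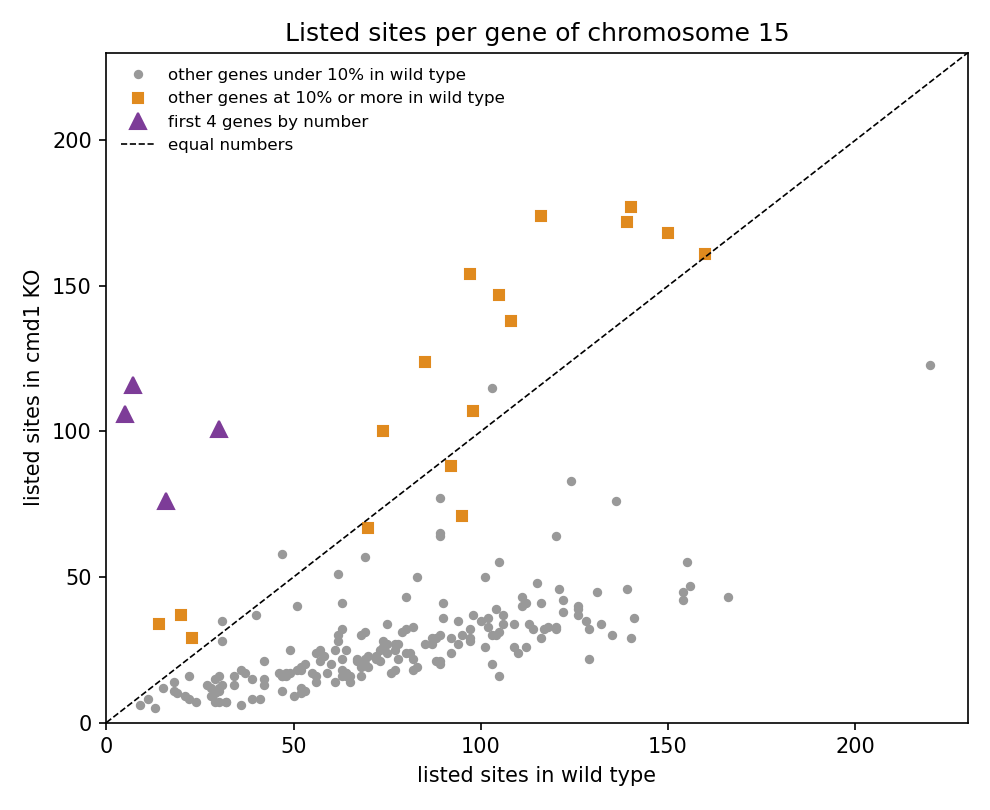
Listed sites per gene in cmd1 KO (vertical axis) against wild type (horizontal axis) for the 215 genes, with the first 4 genes by number as purple triangles and other genes that reached 10% in wild type as orange squares. The 4 triangles sit far above the line of equal numbers, with 76 to 116 sites in cmd1 KO and 5 to 30 in wild type, and most genes lie below it.

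The 20 genes higher by at least 10 points came from both weakly and clearly methylated genes. In wild type, 9 of them stood under 2%, 5 between 2% and 10%, and 6 at 10% or more.

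Among the 9 genes under 2% in wild type, the cmd1 KO level ranged from 11.8% to 26.2%, with a median of 16.4%, against 0.57% to 1.63% in wild type. Cre15.g640101 had the largest difference of the chromosome, with 26.2% over 13 sites in cmd1 KO and 1.02% over 27 sites in wild type, 25.2 points higher. Cre15.g639400 stood at 22.9% over 22 sites in cmd1 KO and at 1.59% over 63 sites in wild type. Cre15.g639503 stood at 17.7% over 41 sites in cmd1 KO and at 1.61% over 90 sites in wild type. These 3 genes are nearly unmethylated in the wild type column and moderately methylated in the cmd1 KO column. Cre15.g634750 stood at 17.8% over 65 sites in cmd1 KO and at 1.63% over 89 sites in wild type. Cre15.g641976 stood at 16.4% over 16 sites in cmd1 KO and at 0.77% over 34 sites in wild type. Cre15.g640200 stood at 14.96% over 16 sites in cmd1 KO and at 0.57% over 65 sites in wild type. The cmd1 KO list was the shorter in all 6 named here, and their differences shrink with both divisors. With the wild type divisor the difference was 11.6 points in Cre15.g640101 and 11.3 points in Cre15.g634750. It was 6.39 points in Cre15.g639400, 6.47 points in Cre15.g639503, 6.93 points in Cre15.g641976 and 3.11 points in Cre15.g640200. Of the 9 genes, 3 stayed 10 points higher with the wild type divisor, and 1, Cre15.g634550, with the larger divisor, where Cre15.g640101 was 7.28 points higher and Cre15.g634750 6.89 points. Neither divisor could change Cre15.g634550, which has 116 sites in cmd1 KO and only 7 in wild type, so its place in both counts was fixed in advance.

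Among the 6 that reached 10% in wild type, 4 had longer site lists in cmd1 KO. Cre15.g642865 stood at 41.9% over 174 sites in cmd1 KO and at 19.2% over 116 sites in wild type, 22.7 points higher. Cre15.g634925 stood at 28.3% over 124 sites in cmd1 KO and at 12.9% over 85 sites in wild type. Cre15.g641662 stood at 44.0% over 147 sites in cmd1 KO and at 29.6% over 105 sites in wild type. Cre15.g643028 had the highest cmd1 KO level of the chromosome, 47.2% over 138 sites, against 32.8% over 108 sites in wild type. In these 4 genes the cmd1 KO list is the longer, so the wild type divisor leaves their differences of 14.3 to 22.7 points as they are. With the larger divisor, Cre15.g642865 was still higher by 22.2 points, Cre15.g634925 by 14.2 points and Cre15.g641662 by 10.9 points. Cre15.g643028 was then higher by 6.77 points. The other two, named after their values had been seen, had shorter lists in cmd1 KO and smaller differences. Cre15.g641674 stood at 21.2% over 71 sites in cmd1 KO and at 10.3% over 95 sites in wild type, and its difference of 11.0 points was 5.59 with the wild type divisor and 0.15 with the larger. Cre15.g643400 stood at 20.5% over 88 sites in cmd1 KO and at 10.2% over 92 sites in wild type, and its difference of 10.3 points was 9.40 with the wild type divisor and 2.69 with the larger. Cre15.g641901 stood just under 10% in wild type, with 25.6% over 51 sites in cmd1 KO and 9.65% over 62 sites in wild type. Its difference of 15.96 points was 11.4 with the wild type divisor and 4.20 with the larger.

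Grouped by the wild type level, chromosome 15 had fewer genes in the lowest class and more in every class above 2% than all other genes together. Under 2% in wild type stood 167 of its genes, or 77.7%, against 90.8% of all other genes. In that class the median difference was 4.75 points on chromosome 15 and 4.71 points elsewhere, while 9 of 167 genes (5.39%) and 288 of 15530 (1.85%) were higher by 10 points. Between 2% and 5%, 3 of 20 genes and 125 of 786 elsewhere (15.9%) were. Between 10% and 20%, 4 of 9 genes and 57 of 189 elsewhere (30.2%) were. If each class of chromosome 15 had the share of all other genes in that class, 13.2 genes would be higher by 10 points, against the 20 observed, and 0.23 genes would be lower, against 3. Of its 9 genes between 20% and 40% in wild type, 5 were higher and 4 lower, with a median difference of 0.00090 points, against 3.89 points elsewhere. Higher by 10 points were 2 of the 9 (22.2%), against 20.3% elsewhere. At 40% or more the median difference elsewhere was -0.26 points, with 70 of 148 genes higher. Both chromosome 15 genes of that class were lower, Cre15.g634582 and Cre15.g635000. The second of these stood at 40.4% over 34 sites in cmd1 KO and at 44.5% over 14 sites in wild type.

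**Figure D4:**
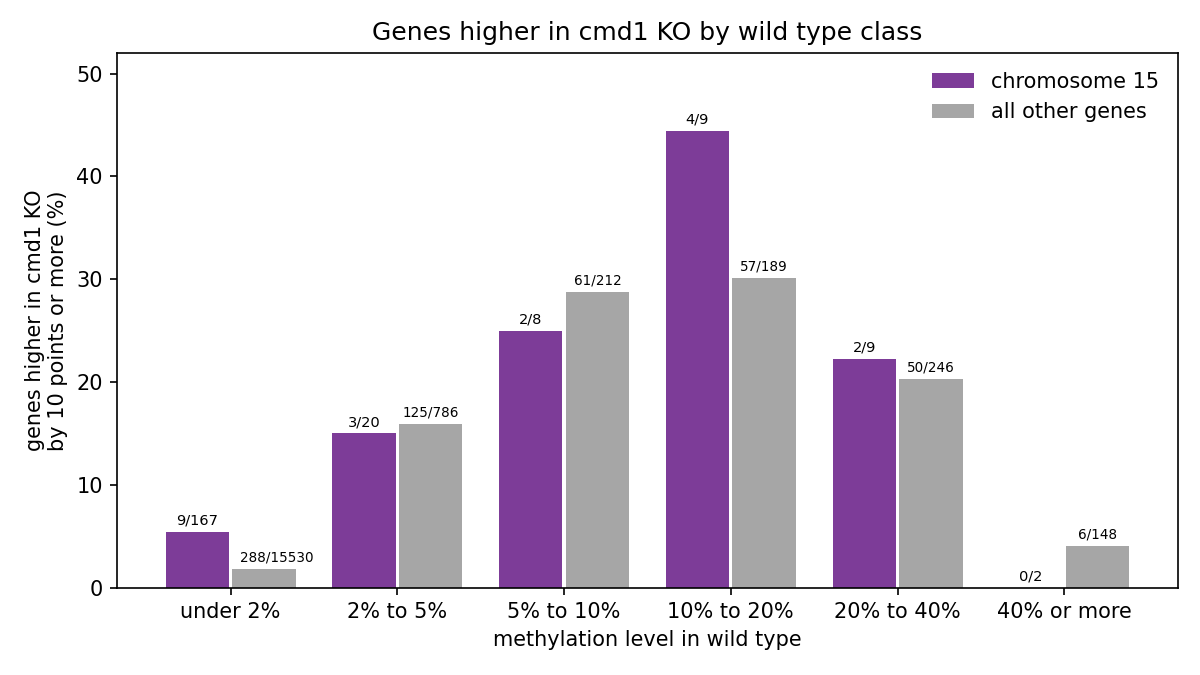
Share of genes (%) higher in cmd1 KO by 10 points or more within classes of the wild type level, for chromosome 15 (purple) and all other genes (grey), with the counts above the bars. Under 2% the counts are 9 of 167 on chromosome 15 and 288 of 15530 elsewhere, and the classes from 5% upwards hold 9 or fewer chromosome 15 genes each.

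The number in the identifier follows the chromosome only in part. All 215 genes matched the RefSeq table of assembly Chlamydomonas_reinhardtii_v5.5, all on chromosome 15, and 0 of them had a symbol there, so genes are given by identifier. Of the 214 pairs of genes next to each other by number, 56 ran in the opposite direction on the assembly, and 167 were next to each other on it. The labels and headers used here do not name the build behind the deposited levels, so the assembly was used for names and neighbours alone.

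Methylated genes lay mostly outside the middle of the order. The 215 genes were divided into 22 blocks of 10, the last of 5, and the split of blocks into ends and middle was made after the values had been seen. In blocks 3 to 16, with 140 genes, 2 genes (1.43%) stood at 10% or more in wild type. In blocks 1 and 2 it was 6 of 20 genes, and in blocks 17 to 22 it was 12 of 55 (21.8%), against 3.48% of all genes. The last block had 0 such genes. Of the first 10 genes 3 reached 10% in wild type, against 0 to 5 on the other chromosomes. Of the last 10 genes 1 did, against 0 to 2 there. The genes higher by 10 points were spread more widely, but their share was also larger at the ends. There were 5 (25%) in blocks 1 and 2, 6 (4.29%) in blocks 3 to 16 and 9 (16.4%) in blocks 17 to 22. Over all genes the share was 3.5%. Of the 6 in the middle blocks, 5 stood under 2% in wild type. The block with the highest median, from Cre15.g643384 to Cre15.g643400, had a median level of 15.3% in cmd1 KO and 7.12% in wild type, and 4 of its 10 genes stood at 10% or more in wild type. It holds the same genes in the order of the assembly, where 13 of 22 blocks had no gene at 10% or more in wild type, as by number.

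Neighbouring methylated genes formed short runs. In the order of the number, 9 of the 20 genes that reached 10% in wild type lay in 4 runs of 2 or 3 genes. Those 9 were 4.19% of the genes of chromosome 15. The share on the other chromosomes ranged from 0.71% to 6.36%, with a median of 1.81%. The longest run on each other chromosome, all of which have more genes, ranged from 3 to 29 genes. The longest on chromosome 15 held Cre15.g643391, Cre15.g643392 and Cre15.g643393. Cre15.g643391 stood at 23.8% in cmd1 KO and 26.1% in wild type, and Cre15.g643392 at 24.4% in cmd1 KO and 26.8% in wild type. Cre15.g643393 stood at 20.7% in cmd1 KO and 15.6% in wild type, 5.13 points higher. Cre15.g643392 overlaps each of the others on the assembly, so sites can be shared between them and their values are not separate measurements. Cre15.g641662 and Cre15.g641674, another run, overlap as well, and were both higher in cmd1 KO. In the order of the assembly there were 6 runs with 13 genes, among them Cre15.g642865 beside Cre15.g643028.

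Across the 214 neighbouring pairs, Spearman's rho of the wild type level was 0.22 by number and 0.32 on the assembly, and on the other chromosomes it ranged from 0.044 to 0.32 by number. The rho of the difference was -0.045 by number and -0.098 on the assembly, and on the other chromosomes it ranged from -0.025 to 0.14 by number. The order of the assembly was not used for the other chromosomes. Neighbours share library and sometimes sites, and the difference contains the wild type level, so these values are descriptions. Neighbouring genes were thus weakly alike in wild type level, and rho showed no such likeness of the difference in either order, while Pearson's r of the difference by number was 0.12.

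Other genes mark the range of the data. Cre15.g642702 had the most listed wild type sites, with 9.22% over 123 sites in cmd1 KO and 6.89% over 220 sites in wild type. Its difference of 2.33 points turned to -1.74 points with the wild type divisor and -3.50 with the larger. Cre15.g643392 had the most cmd1 KO sites, 177, against 140 in wild type. Cre15.g643850 had the fewest cmd1 KO sites, with 9.86% over 5 sites in cmd1 KO and 1.97% over 13 sites in wild type. Cre15.g637900 stood at 31.8% over 154 sites in cmd1 KO and at 28.7% over 97 sites in wild type. The last gene by number, Cre15.g644051, stood at 6.40% over 28 sites in cmd1 KO and at 1.49% over 97 sites in wild type, a difference of 4.91 points close to the median. That difference was 0.36 points with the wild type divisor and -0.27 with the larger. By the deposited means, 181 of the 215 genes stood under 10% in wild type and were higher in cmd1 KO by less than 10 points. The same count over all genes was not made. On chromosome 15, 9.30% of genes reached 10% in wild type and 9.30% were higher by 10 points, against 3.48% and 3.5% of all genes.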

How the data were processed

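Whole-genome bisulfite sequencing was done on 2 cmd1 KO libraries and 1 wild type library. The submitters' processing notes name BSMAP, Trimmomatic 0.36 and FastQC 0.11.5. The labels and headers used here do not state the genome build, annotation, coverage minimum, cytosine contexts or the way the cmd1 KO libraries were combined. Per the file headers, the authors deposited for each gene a count of sites and a methylation level as a fraction, printed here as percent. The deposited score of the difference equals cmd1 KO minus wild type, and the deposited fold and ratio of change were not used. The deposited p-value is the authors' own, its test is not stated, and it was adjusted here by the Benjamini-Hochberg method over all genes.

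From these values, counts, medians, classes of the wild type level, runs of neighbours and correlations between neighbours were computed with Python 3.11.15, pandas 2.3.3 and scipy 1.17.1, and the functions were tested on simulated data. The read depth is unknown, and the number of sites limits the precision. No test was run over genes. Named genes were the 10 largest differences of at least 10 points in each direction, the 5 highest levels in each genotype, the longest run, the first and last gene, and those with the fewest and most sites, with exceptions stated. The members, lists and alternatives were chosen with earlier results of these data known.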

Additional observations from a re-analysis of the deposited data

Results flagged for a closer look

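Listed site numbers are deposited apart from the levels, although each level is a mean over the listed sites. The cmd1 KO column lists fewer sites in total. Even so, the cmd1 KO list was the longer in 21 of the 215 genes of chromosome 15 (9.77%). On the other chromosomes 516 of 16869 genes (3.06%) had a longer cmd1 KO list. Of the 21, 17 stood at 10% or more in wild type. With the share of all other genes in each class of the wild type level, 17.8 such genes would be found on chromosome 15. The first 4 genes by number stood out as well, with 399 listed sites in cmd1 KO, against 58 in wild type.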

How the results depend on the processing

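Counting differences of at least 5 or 20 points gave 100 or 3 genes higher (46.5% and 1.40%, against 41.7% and 0.40% of all genes). With at least 20 sites in both columns (143 genes), 15 genes were higher and 1 gene was lower by 10 points. The genes left out include Cre15.g640101, Cre15.g640200, Cre15.g641976 and Cre15.g634550, all under 2% in wild type. The same count over all genes was not made. The median difference was then 4.76 points, and rho between neighbours was 0.23 for the wild type level and 0.062 for the difference. With the wild type site number as divisor where larger, 9 genes were higher by 10 points, the median difference was 0.83 points and 87.9% of genes were higher. With 1.52 times that number, these were 4 genes, 0.092 points and 57.7%, against 76 genes (0.44%), 0.13 points and 62.9% over all genes. Both divisors treat absent cmd1 KO sites as unmethylated, which by construction never raises the cmd1 KO level. The mean difference was 5.24 points, and the median after centring each column on its own median over all genes was 0.0074 points. At 20% or more in wild type there were 11 genes (5.12%, against 2.34% of all genes), 4 of them in runs. Pearson's r between neighbours was 0.23 for the wild type level and 0.12 for the difference. Chosen after seeing the data, leaving out the first 4 genes gave 0 genes lower by 10 points and rho of 0.23 and -0.025, and the order of the assembly gave rho of 0.32 and -0.098. The sign of rho of the difference thus depended on these settings. Of the 22 named genes, 2 changed sign with a divisor, Cre15.g642702 (-1.74 and -3.50 points) and Cre15.g644051 (-0.27 with the larger), and neither had differed by 10 points. The cause of these changes beyond the divisors was not tested. No paired analysis was possible because each genotype has 1 column, which also prevents leaving out a library. The read depth and unlike site lists limit every level.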

Other observations

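Most identifiers carry a number that is a multiple of 50, and genes with other numbers were more often methylated. On chromosome 15, 95 of 215 genes (44.2%) had another number, and 15 of them (15.8%) stood at 10% or more in wild type, against 5 of the 120 genes (4.17%) with a multiple of 50. On the other chromosomes 30.7% of genes had another number, and the corresponding shares were 7.85% and 1.00%. Of the genes higher in cmd1 KO by 10 points on chromosome 15, 13 had another number (13.7% of such genes) and 7 a multiple of 50 (5.83%). On the other chromosomes the corresponding shares were 4.88% and 2.70%. The median level of the 95 genes was 6.48% in cmd1 KO and 1.45% in wild type, and that of the 120 genes was 6.05% in cmd1 KO and 1.15% in wild type. No test was run on these shares, since genes are not replicates.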
